A study of Oryza sativa with 16 samples.

Results

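The MADS-box transcription factor genes of rice (Oryza sativa) were followed through 16 RNA-seq libraries of seedling roots and shoots. Members were taken by gene name alone: every gene whose name in the count tables is MADS or OsMADS followed by a number, which gave 46 members of 37849 genes, of which 9826 carry a gene symbol. The rule uses names and no measured value, but the family was picked for description with earlier results of these data known. N22 (Nagina 22), an aus type from rainfed uplands, and IR64, an indica type from irrigated lowlands, were each grown with both inputs short (N-W-), with nitrogen alone short (N-W+), with water alone short (N+W-) and with optimal supply of both (N+W+), and root and shoot were sequenced from each. Where 4 values of a genotype follow each other, they stand in this treatment order, and where 2 stand for 1 nitrogen level, that with low water comes first. The RNA of the biological replicates was pooled, so that each of the 16 combinations is 1 library without a replicate of its own. The labels give plants 21 days old for the low water treatments and 15 days old for the others, whereas the methods of the study give a single age for all. Under the labels, low water and age cannot be told apart. The nitrogen concentrations and the water supply given in the labels and the methods also differ, and the treatments are therefore named only as low or optimal.

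MADS-box genes encode transcription factors that bind DNA as dimers and larger complexes. The type II (MIKC) genes include the floral organ identity genes, the genes that time the transition to flowering, and a clade related to Arabidopsis ANR1 that acts in root growth and nitrate signalling. The type I genes are known mostly from the female gametophyte and the endosperm, and a seedling is not the organ in which most of the family has its best known role.

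The libraries held 8272195 to 13675454 exon reads in roots and 2420338 to 11379518 in shoots, the lowest being the N22 shoot library under N-W+. Members took 201 to 209 CPM (read counts scaled to a common library size) in N22 roots, before any further scaling, against 306 to 430 in IR64 roots, and 227 to 310 in N22 shoots, against 362 to 433 in IR64 shoots. The 4 leaf genes checked (CAB1R, CAB2R, RbcS3 and PsbO) summed to 3.16 to 66.7 CPM in roots and to 10687 to 122822 CPM in shoots. The 6 root genes checked (NRT2.1, NRT2.2, NAR2.1, LSI1, LSI2 and RCc3) summed to 1776 to 7920 CPM in roots and to 8.51 to 25.8 CPM in shoots, so the organ labels held in all 16 libraries. The 5 KNOX genes of the shoot meristem and stem (OSH1, OSH15, OsH43, OSH6 and OSH3) were uneven within an organ. They summed to 157 CPM in IR64 roots under N-W- and 55.95 CPM under N+W+, against 8.12 to 14.3 CPM in the other 6 root libraries. In shoots they summed to 1.68 and 27.4 CPM in N22 and to 16.7 and 8.87 CPM in IR64 at low nitrogen, against 0.159 to 1.25 CPM in the 4 libraries at optimal nitrogen. Whether the libraries differed in the tissue they held or in the expression of these genes was not tested, and the sums are given again beside the members that moved with them.

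Of the 46 members, 45 had at least 1 read and OsMADS13 had none. In 28 members no library reached 20 reads, and these 28 together held 494 of the 45199 reads of the family, or 1.09%. The 6 members with most reads held 83.3%. OsMADS56, a SOC1-like gene on chromosome 10 (20863187 to 20873635, plus strand, 8 exons, Os10g0536100, positions on IRGSP-1.0), alone held 18743 reads, or 41.5%. It was followed by OsMADS60 with 4804 reads, OsMADS47 with 4348, MADS51 with 3917, MADS26 with 3133 and OsMADS22 with 2713. Per kilobase of exon, with scaling over all 16 libraries, OsMADS56 averaged 68.5 ± 62.3 CPM in roots and 150.7 ± 119 CPM in shoots (SD over 8 libraries). Its spread was wide because the genotypes differed, as described further on. In roots MADS26 (27.5 ± 6.58), MADS51 (26.6 ± 4.38), OsMADS47 (21.0 ± 4.10) and OsMADS27 (19.9 ± 3.58 CPM per kilobase) came next, and the mean ± SD ranges of neighbours in that order overlapped. In shoots OsMADS60 (40.8 ± 19.1), OsMADS22 (29.4 ± 3.88), OsMADS47 (25.7 ± 6.37) and MADS51 (22.6 ± 6.53 CPM per kilobase) came next, again with overlapping ranges.

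**Figure D1:**
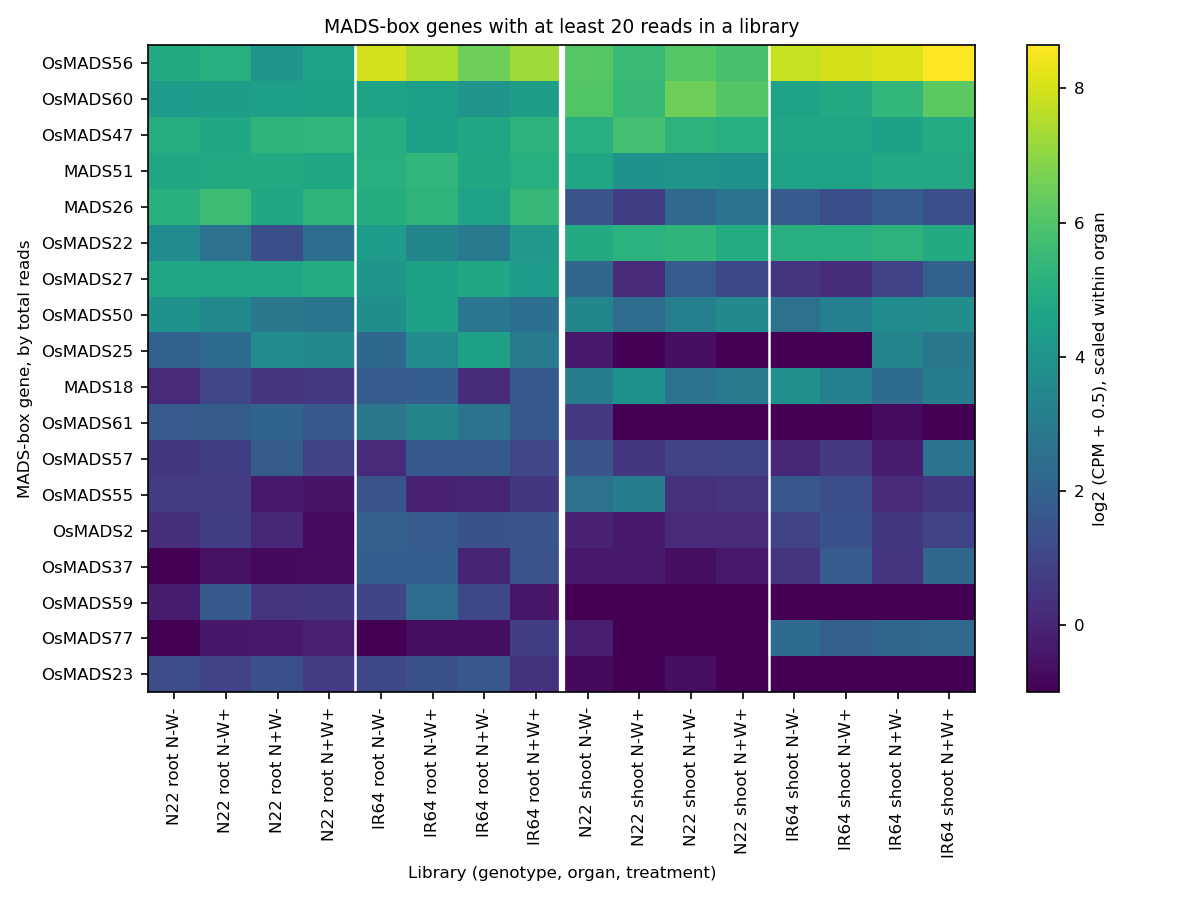
Heat map of the 18 members with at least 20 reads in a library, ordered by total reads, in 16 libraries; colour is log2 (CPM + 0.5) after scaling within roots and within shoots. OsMADS56 is brightest in the IR64 libraries, and MADS26, OsMADS27, OsMADS25, OsMADS61, OsMADS59 and OsMADS23 are dark in most or all shoot libraries.

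By clade, the reads of the family were concentrated in the flowering-time and root clades. The clade sums are raw reads, not scaled for depth. Root libraries had a median of 10372369 exon reads and shoot libraries 7241988, so root sums are raised beside shoot sums. The SOC1 clade (OsMADS50 and OsMADS56) had 9408 reads in roots and 10843 in shoots, and the SVP clade (OsMADS22, OsMADS47 and OsMADS55) had 3476 and 3801. The ANR1-related clade (OsMADS23, OsMADS25, OsMADS27, OsMADS57 and OsMADS61) had 3618 reads in roots and 369 in shoots, and the AGL12 clade (MADS26 and OsMADS33) had 2961 and 179, nearly all from MADS26. The 3 members of the AP1/FUL clade (MADS14, MADS18 and OsMADS20), a clade known from the change to an inflorescence meristem, had 162 reads in roots and 503 in shoots. The AG/STK, SEP and AGL6-like floral clades were close to silent. The 3 members of the AG/STK clade had 1 read in roots and 11 in shoots. The 2 members placed in the SEP clade by their gene number, OsMADS5 and OsMADS7, had 2 and 10, and the AGL6-like MADS17 had 7 and 1. OsMADS24, among the 4 members that were not placed in a clade by number, had 2 and 2. The PI-like genes OsMADS2 and OsMADS4, petal and stamen identity genes, had more, with 191 reads in roots and 82 in shoots. Over both organs OsMADS2 had 209 of these reads and OsMADS4 had 64. MADS32, also a gene of floral organ identity, had 70 reads in roots and 50 in shoots. The 3 members of the Bsister clade (MADS29, MADS30 and OsMADS31) had 38 and 28. Only 50.7% of the OsMADS2 reads were unique, against 95.5% or more for each of the other 17 members with at least 20 reads in a library, so its level is uncertain. The 11 type I members had 65 reads in roots and 191 in shoots. All 11 had 1 exon in the tables, against 4 to 15 exons (median 8) in the other 35.

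Roots were compared with shoots in 1 fit of edgeR's quasi-likelihood test over all 16 libraries, with a block for each of the 8 combinations of genotype and treatment. Of the 12 members tested, 8 passed an adjusted p (Benjamini-Hochberg over all genes tested) of 0.05, 4 higher and 4 lower in roots; 43.4% of all genes tested passed. The members higher in roots were MADS26 (log2 difference 3.31 ± 0.35 SE, adjusted p = 3.34e-05), OsMADS27 (3.496 ± 0.38, adjusted p = 4.42e-05), OsMADS25 (3.85 ± 1.02, adjusted p = 0.0111) and OsMADS61 (5.21 ± 0.86, adjusted p = 0.000663). MADS26, known as a regulator of stress responses, was at 25.9 to 47.7 CPM in N22 roots, 22.8 to 42.4 in IR64 roots, 1.23 to 5.98 in N22 shoots and 2.01 to 3.03 in IR64 shoots, and the organs did not overlap. OsMADS27 and OsMADS25, both known from nitrate-dependent root growth, and OsMADS61 belong to the ANR1-related clade. OsMADS57 of the same clade, known from the control of tillering through D14, did not differ detectably between the organs (0.03 ± 0.52, adjusted p = 0.966). For OsMADS25 the organs overlapped. In IR64 under N+W+ it was at 6.36 CPM per kilobase of exon in roots and 7.15 in shoots. Under N+W- these values were 18.9 and 10.0. The N22 shoot libraries and the IR64 shoot libraries at low nitrogen held 0 to 3 reads of it. OsMADS23, which acts in drought and abscisic acid responses and was too low for the fit, had 7 to 32 exon reads in each root library and 0 or 1 in each shoot library. Counting introns as well, it had 360 to 1191 reads in roots and 333 to 1623 in shoots, and the organs overlapped.

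The members lower in roots were MADS18 (log2 difference -2.76 ± 0.31, adjusted p = 5.44e-05), OsMADS22 (-2.25 ± 0.40, adjusted p = 0.00103), OsMADS60 (-1.54 ± 0.28, adjusted p = 0.0014) and OsMADS56 (-1.32 ± 0.29, adjusted p = 0.00402). OsMADS22 of the SVP clade, a repressor of brassinosteroid responses, held a narrow range in shoots, 29.5 to 39.1 CPM in N22 and 28.9 to 37.5 CPM in IR64. In roots it spread from 1.96 to 12.3 CPM in N22 and from 7.53 to 18.8 CPM in IR64. The other 3 members tested, MADS51 (0.28 ± 0.20), OsMADS47 (-0.27 ± 0.18) and OsMADS50 (-0.15 ± 0.40), did not pass, with adjusted p from 0.25 to 0.788. The 8 calls held when any 1 of the 16 libraries was left out. OsMADS59 on chromosome 6 (13996413 to 14009042, plus strand), without a clade assigned here, has only 548 bases of exon. It was outside the fit but had 2 to 74 exon reads in each root library and 0 in each of the 8 shoot libraries.

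**Figure D2:**
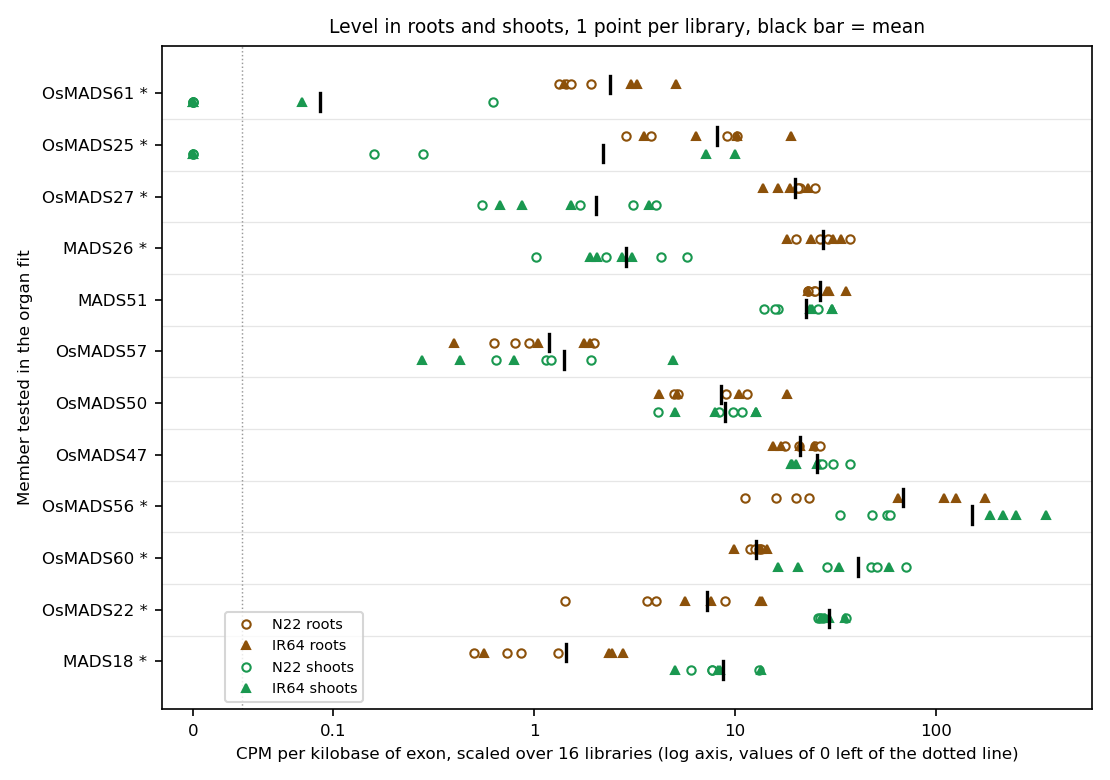
Level of the 12 members tested between the organs, in CPM per kilobase of exon scaled over 16 libraries on a log axis, 1 point per library, with the mean as a black bar; an asterisk marks an adjusted p under 0.05. For MADS26 and OsMADS27 the 8 root points all lie right of the 8 shoot points, and for OsMADS22 and MADS18 all lie left of them.

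The genotypes were compared within each organ over the 4 treatments (8 libraries a fit, with genotype and treatment as terms and 3 residual degrees of freedom). In these fits the 2 genotypes serve as each other's only replication of a treatment, and p-values measure how uniformly the difference appeared over the treatments. In roots 4 of 18 members tested passed, all lower in N22, while 14% of all genes tested passed. In shoots 2 of 16 passed, both lower in N22, against a background of 6.62%. No member was called higher in N22 in either organ. Of all genes tested, 1632 of 24285 were called higher and 1779 lower in N22 roots. In shoots 570 of 22913 were called higher and 947 lower. N22 is an aus and IR64 an indica type, and reads of both were mapped to the japonica genome of Nipponbare. Lower expression and poorer mapping of 1 genotype's reads cannot be told apart here.

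OsMADS56, which delays flowering in long days, showed the firmest difference. In N22 roots it was at 28.8, 32.99, 16.01 and 22.999 CPM. In IR64 roots it was at 253, 175, 90.3 and 154 CPM. No N22 library reached the lowest IR64 library, and each treatment gave the same direction. The means were 25.2 ± 7.37 CPM in N22 roots and 168 ± 67.0 CPM in IR64 roots (SD, 4 libraries each), a log2 difference of -2.69 ± 0.19 (edgeR adjusted p = 0.000185). In N22 shoots it was at 67.9, 44.7, 67.4 and 55.9 CPM, against 229, 256, 276 and 398 CPM in IR64 shoots. The shoot groups again did not overlap (log2 difference -2.28 ± 0.29, edgeR adjusted p = 0.0056). All of its reads were unique, and the call held in both organs when any 1 library was left out.

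Its SOC1 clade partner OsMADS50, a promoter of flowering, averaged 9.67 ± 3.95 CPM in N22 roots and 11.8 ± 7.83 CPM in IR64 roots, and did not pass (log2 difference -0.15 ± 0.25, edgeR adjusted p = 0.724). In shoots it averaged 8.68 ± 2.73 CPM in N22 and 9.76 ± 3.47 CPM in IR64 (-0.14 ± 0.36, edgeR adjusted p = 0.846). The other well read members also did not pass in either organ: MADS26, MADS51, OsMADS47, OsMADS27 and OsMADS60 had log2 differences of 0.12, -0.24, 0.24, 0.32 and 0.04 in roots, and of 0.32, -0.58, 0.58, 0.58 and 0.78 in shoots. OsMADS47 was at 32.8 to 53.0 CPM in N22 shoots, against 22.4 to 30.3 CPM in IR64 shoots, without overlap (log2 difference 0.58 ± 0.25, edgeR adjusted p = 0.222). OsMADS60 averaged 66.4 ± 19.7 CPM in N22 shoots and 41.6 ± 23.2 CPM in IR64 shoots, with overlap (0.78 ± 0.32, edgeR adjusted p = 0.196).

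OsMADS37 lies on chromosome 8 (26518976 to 26529016, plus strand, Os08g0531900), 6714 bases downstream of OsMADS7. In roots it had 0, 2, 1 and 1 reads in N22, against 31, 48, 6 and 19 reads in IR64. The N22 root values were all at the level of single reads, and the groups did not overlap (log2 difference -4.28 ± 0.73, edgeR adjusted p = 0.00916). Without the IR64 root library under N+W+ or under N-W+ the call was lost, with adjusted p over the 8 omissions of 0.011 to 0.0531. In shoots it had 3, 1, 1 and 2 reads in N22, against 8, 18, 8 and 26 reads in IR64, a difference that did not pass in edgeR (-2.73 ± 0.70, adjusted p = 0.0648) and passed with DESeq2.

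OsMADS77, a type I member on chromosome 9 (1272405 to 1272962, minus strand, Os09g0116000), had most of its reads in IR64 shoots. It had 4, 0, 0 and 0 reads in N22 shoots, against 42, 20, 37 and 28 reads in IR64 shoots. In CPM this was 0.094 ± 0.187 in N22 and 4.13 ± 0.596 in IR64 (log2 difference -5.13 ± 0.86, edgeR adjusted p = 0.0166). Set against a floor of 3 reads, it was at least 3.62-fold, 8.54-fold and 9.91-fold lower in N22 in the 3 pairs where N22 had no read. The call was lost without the IR64 shoot library under N+W+ or under N+W-, with adjusted p up to 0.0572. The other type I members had 1 to 21 reads each, summed over all 16 libraries.

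OsMADS22 and OsMADS2 were also lower in N22 roots. OsMADS22 was at 12.3, 5.50, 1.96 and 5.05 CPM in N22 roots, against 18.8, 10.1, 7.53 and 18.01 CPM in IR64 roots. The groups overlapped, but N22 was lower under each of the 4 treatments (log2 difference -1.28 ± 0.28, edgeR adjusted p = 0.0231). Its 2 highest IR64 values came from the N-W- and N+W+ libraries, which also held the KNOX genes at 157 and 55.95 CPM. With both of these libraries left out, an alternative added after seeing the data, the difference was -1.35 (edgeR adjusted p = 0.0383). That left IR64 roots with only N-W+ and N+W-, which differ in both nitrogen and water. Whether KNOX-expressing tissue had a part in the OsMADS22 difference was not tested. The call was lost without either genotype's N+W+ library or either genotype's N+W- library, with adjusted p up to 0.105. In shoots OsMADS22 averaged 33.4 ± 4.65 CPM in N22 and 33.3 ± 3.51 CPM in IR64 (log2 difference -0.0029 ± 0.22). OsMADS2 had 6, 14, 6 and 1 reads in N22 roots, against 33, 45, 26 and 20 reads in IR64 roots, without overlap (log2 difference -2.15 ± 0.52, edgeR adjusted p = 0.0314). That call was lost when any 1 of the 8 root libraries was left out, with adjusted p of 0.0527 to 0.0889.

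**Figure D3:**
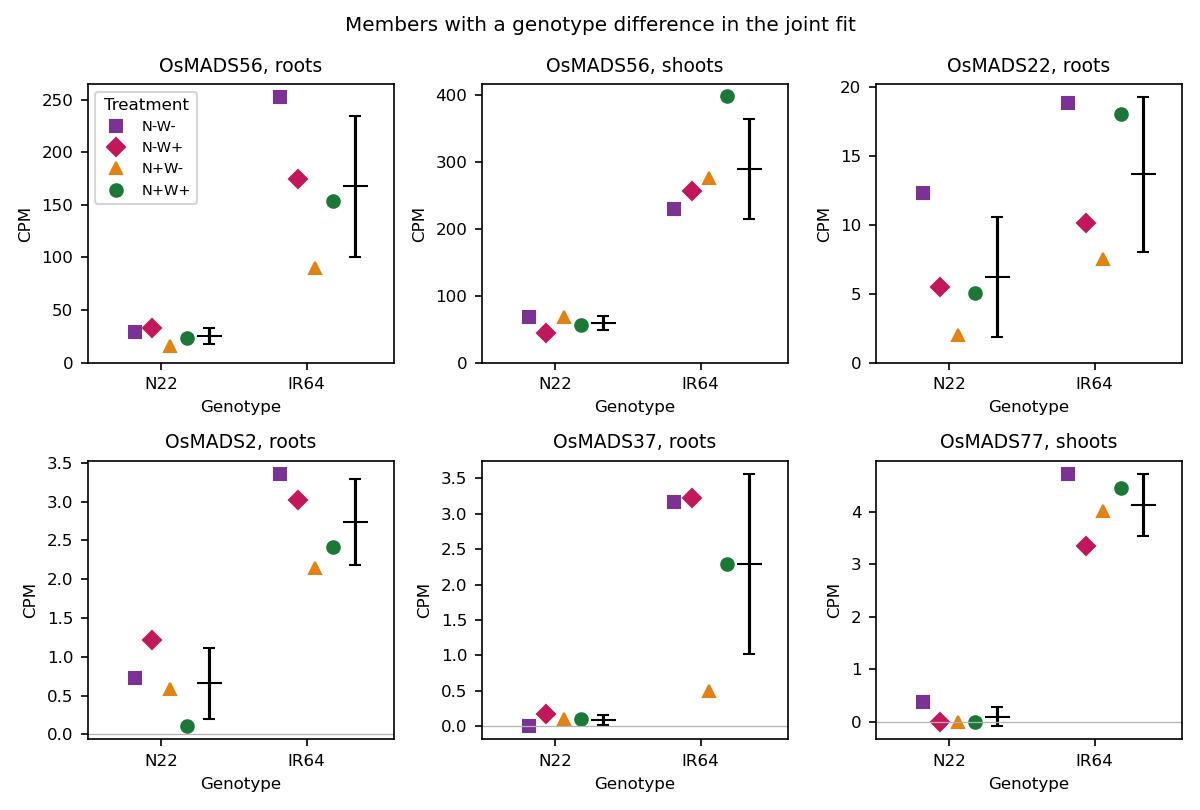
CPM of the 5 members with a genotype difference in the joint fit, N22 left and IR64 right, 1 symbol per library by treatment, with the mean and SD of 4 libraries in black. OsMADS56 does not overlap between the genotypes in roots or shoots, OsMADS37 and OsMADS77 stay near 0 in N22, and OsMADS22 overlaps. OsMADS2 lies at 0.103 to 1.22 CPM in N22 roots and at 2.15 to 3.36 CPM in IR64 roots.

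Low against optimal nitrogen was compared within the same fits, the 4 low nitrogen libraries, with and without low water, against the other 4. In roots 2 of 18 members passed, both higher at low nitrogen, against 7.36% of all genes tested. In shoots 1 of 16 passed, higher at low nitrogen, against 18.2%. Over the members tested the median log2 difference was 0.37 in roots (14 higher, 4 lower) and 0.03 in shoots (8 higher, 8 lower), with medians over all genes of 0.02 and 0.01.

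The root calls were the SOC1 clade pair. OsMADS50, on chromosome 3 (1270320 to 1300273, minus strand, 10 exons), is known from floral promotion and from crown root formation. In N22 roots it was at 14.5 and 11.3 CPM at low nitrogen, against 6.58 and 6.29 CPM at optimal nitrogen. In IR64 roots it was at 13.3 and 22.2 CPM, against 6.37 and 5.196 CPM. All 4 low nitrogen libraries lay above all 4 others, with means of 15.3 ± 4.76 and 6.11 ± 0.621 CPM (log2 difference 1.31 ± 0.25, edgeR adjusted p = 0.023). The ratio was above 0 on the log2 scale in each of the 4 pairs of libraries, at 1.13 for N-W- over N+W- and 0.85 for N-W+ over N+W+ in N22, and at 1.06 and 2.09 in IR64. The exact 95% binomial intervals of these ratios, which cover counting error only, all lay above 0, the lowest bound being 0.40. Counting introns as well, OsMADS50 had 798, 1206, 479 and 395 reads in N22 roots. In IR64 roots it had 846, 1657, 500 and 521 reads. The call held with these reads. In IR64 its N-W+ and N+W+ counts lay closer together than in exon reads, which were 331 and 43. In shoots the same gene was not called (-0.60 ± 0.35, edgeR adjusted p = 0.272), and it was lower at low nitrogen in 3 of the 4 pairs. The root call was lost without any 1 of the 4 optimal nitrogen libraries or that of N22 under N-W-, with adjusted p over the 8 omissions of 0.0135 to 0.0991.

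OsMADS56 rose less, by 0.77 ± 0.18 on the log2 scale (edgeR adjusted p = 0.0459). Its 4 ratios in roots were 0.85 and 0.52 in N22 (N-W- over N+W-, N-W+ over N+W+) and 1.49 and 0.18 in IR64. The sum of the KNOX genes was also highest in the IR64 root library under N-W-, where OsMADS56 reached 253 CPM, and whether KNOX-expressing tissue had a part in the ratio was not tested. The call was lost when any library other than that of N22 under N-W- was left out (adjusted p 0.0417 to 0.193). With the IR64 root libraries under N-W- and under N+W+ both left out, OsMADS56 no longer passed (0.66, edgeR adjusted p = 0.0692), OsMADS50 still did (1.25, edgeR adjusted p = 0.0281), and OsMADS25 passed as lower (-1.41, edgeR adjusted p = 0.0122). That choice, made after seeing the data, left IR64 roots with only N-W+ and N+W-, which differ in both nitrogen and water. It was not a test of KNOX-expressing tissue. In shoots OsMADS56 had a log2 difference of -0.31 ± 0.27 (edgeR adjusted p = 0.477).

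The shoot call was OsMADS55 on chromosome 6 (5952599 to 5963309, minus strand), an SVP member that together with OsMADS22 and OsMADS47 is known from brassinosteroid signalling. It was at 5.70 and 8.02 CPM in N22 shoots at low nitrogen, against 0.782 and 0.897 CPM at optimal nitrogen. In IR64 shoots it was at 2.58 and 2.01 CPM, against 0.650 and 0.953 CPM. All low nitrogen libraries lay above all others (log2 difference 2.28 ± 0.52, edgeR adjusted p = 0.0254). In reads these were 61, 26, 23 and 12 at low nitrogen and 5 or 6 in each library at optimal nitrogen. Counting introns as well, they were 158, 54, 81 and 36, against 32, 21, 28 and 10. Other SVP members did not follow it in shoots: OsMADS22 had a log2 difference of -0.03 ± 0.22 and OsMADS47 of 0.10 ± 0.25. The call was lost without any 1 of the 3 N22 libraries other than N-W-, and without either IR64 library of low water (adjusted p over the 8 omissions 0.0226 to 0.105).

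In the same shoots 2 of the 4 KNOX genes tested, OSH1 and OSH15, were called higher at low nitrogen, while 18.2% of all genes tested passed in either direction. OSH1 was at 0.094 and 10.8 CPM in N22 and 7.96 and 4.52 CPM in IR64 at low nitrogen, against 0 to 0.156 CPM at optimal nitrogen. Of 3 floral organ genes tested beside the family, 1 was called higher, DL, a carpel and leaf midrib gene. RFL (4.03 ± 1.42, edgeR adjusted p = 0.089) and TDR (-0.02 ± 0.47, edgeR adjusted p = 0.983) were not called. At low nitrogen the KNOX sums in N22 shoots were 1.68 CPM under N-W- and 27.4 CPM under N-W+, with OsMADS55 at 5.70 and 8.02 CPM. In IR64 shoots the sums were 16.7 and 8.87 CPM, with OsMADS55 at 2.58 and 2.01 CPM. Whether stem base tissue had a part in the OsMADS55 difference was not tested. MADS18 of the AP1/FUL clade followed the same direction at 7.67 and 14.8 CPM in N22 and 13.9 and 8.37 CPM in IR64 at low nitrogen, against 5.79 and 7.48 CPM in N22 and 4.66 and 7.78 CPM in IR64. It did not pass (0.82 ± 0.35, edgeR adjusted p = 0.146).

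**Figure D4:**
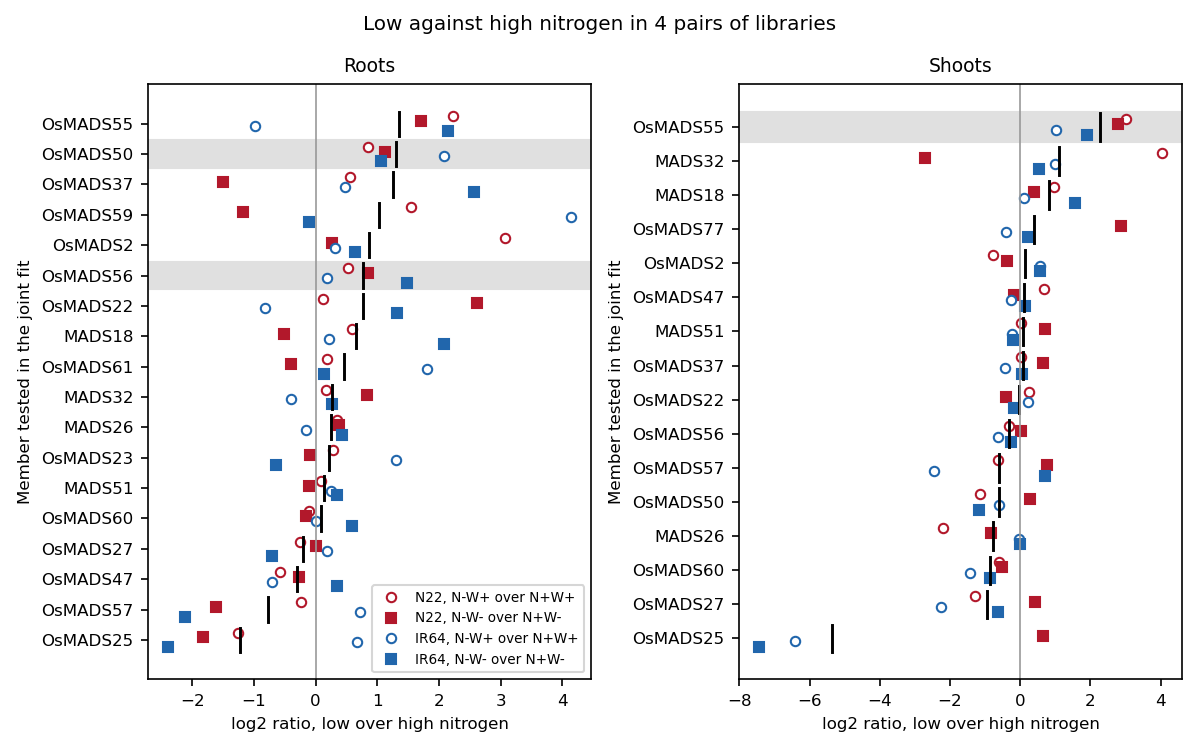
The log2 ratio of low over optimal nitrogen for each member tested, in roots and shoots, with 1 symbol for each of the 4 pairs of libraries and a black bar for the fitted difference; grey bands mark an adjusted p under 0.05. The 4 ratios of OsMADS50 and OsMADS56 in roots and of OsMADS55 in shoots all lie above 0, and those of OsMADS25 in IR64 shoots, each over a low nitrogen library with 0 reads, lie farthest left.

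OsMADS25, on chromosome 4 (13672710 to 13675884, plus strand), is a nitrate-responsive gene of lateral root growth. In roots it was at 3.495 and 4.63 CPM in N22 at low nitrogen, against 12.5 and 11.1 CPM at optimal nitrogen, and in IR64 at 4.28 and 12.1 CPM, against 22.5 and 7.61 CPM. It was lower in 3 of 4 pairs and higher in IR64 under N-W+ against N+W+. The joint fit did not call it (-1.22 ± 0.32, edgeR adjusted p = 0.0641), whereas DESeq2 did. In IR64 shoots it had 0 reads under both low nitrogen treatments, against 87 reads under N+W- and 43 under N+W+. Set against a floor of 3 reads, this was at least 28.0-fold lower under N-W- than under N+W-, and at least 13.6-fold lower under N-W+ than under N+W+. N22 shoots had 3, 0, 1 and 0 reads, so that no change was detectable there. The shoot fit over both genotypes gave -5.36 ± 2.17 (edgeR adjusted p = 0.144).

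Whether the nitrogen difference itself depended on genotype was tested by an interaction term. No member was called in roots (0 of 18, none at an unadjusted p of 0.05) or shoots (0 of 16, 1 at an unadjusted p of 0.05), against 0% and 0% of all genes, of which 293 and 548 were under an unadjusted p of 0.05; these fits had 2 residual degrees of freedom. The 1 member was OsMADS25 in shoots, with an interaction of 9.63 on the log2 scale. It passed (edgeR adjusted p = 0.0364) when the shallow N22 shoot library under N-W+ was left out, where the gene had 0 reads, and did not pass in the other 7 omissions.

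Each stress was also set against N+W+ over both genotypes. No member passed edgeR in roots under N-W+ (0 of 18, 3 at an unadjusted p of 0.05; background 2.83%), N+W- (0 of 18, 3 unadjusted; background 0.00824%) or N-W- (0 of 18, 2 unadjusted; background 1.62%). None passed in shoots under N-W+ (0 of 16, 2 unadjusted; background 13%), N+W- (0 of 16, 0 unadjusted; background 0%) or N-W- (0 of 16, 1 unadjusted; background 6.83%). These backgrounds are shares at the adjusted p. In roots 4532, 1765 and 3430 of 24285 genes were under an unadjusted p of 0.05, in the same order of stresses. In shoots 7461, 2647 and 5752 of 22913 genes were. DESeq2 called 1 member in roots under N-W+, OsMADS50 (log2 difference 1.51, adjusted p = 0.0162; edgeR 1.52 ± 0.36, adjusted p = 0.0748), and none in the other 5 comparisons. The 3 members under an unadjusted p of 0.05 in roots under N+W- were all at lower fitted values than under N+W+: MADS26 (-0.72 ± 0.23), OsMADS22 (-1.27 ± 0.40) and OsMADS56 (-0.65 ± 0.26), with adjusted p of 0.483 to 0.646.

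Within 1 genotype, where each treatment is a single library, differences were described by size alone: a ratio beyond 2 on the log2 scale with at least 1 CPM in either library. In N22 roots the rule took 2 of 18 members under N-W+ (8.05% of all genes), 0 of 15 under N+W- (2.55%) and 1 of 16 under N-W- (6.18%). In IR64 roots it took 3 of 17 under N-W+ (7.71%), 3 of 17 under N+W- (5.46%) and 2 of 18 under N-W- (6.98%). In N22 shoots it took 3 of 12 under N-W+ (27.9%), 0 of 10 under N+W- (10.1%) and 2 of 12 under N-W- (15.1%). In IR64 shoots it took 3 of 17 under N-W+ (24.0%), 4 of 16 under N+W- (9.16%) and 4 of 17 under N-W- (25.7%). At least 1 of the 6 comparisons took 6 of 20 members in roots, against 19.2% of all genes, and 10 of 19 in shoots, against 43.2%. Most of these ratios rested on few reads, and the 95% interval lay wholly beyond 2 for only 4 members: OsMADS59, MADS32, OsMADS57 and OsMADS25.

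OsMADS59 in IR64 roots had 15, 74 and 20 exon reads under the 3 stresses, against 2 under N+W+. The N-W+ ratio was 4.14 on the log2 scale (exact 95% binomial interval 2.46 to 7.43). In N22 roots it had 3, 32 and 9 reads under the same stresses, against 9 under N+W+. N-W+ gave the highest count in both genotypes. Counting introns as well, it had 38, 168 and 80 reads in N22 roots, against 45 under N+W+, and 94, 283 and 118 reads in IR64 roots, against 41 under N+W+. With these gene reads the joint fit called N-W+ higher (1.78, edgeR adjusted p = 0.034), and with exon reads it did not (2.52 ± 0.82, edgeR adjusted p = 0.154).

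OsMADS57 in IR64 shoots had 5, 6 and 3 reads under the 3 stresses, against 37 under N+W+. Its N+W- ratio was -3.93 (interval -6.52 to -2.52) and its N-W- ratio -3.25 (interval -5.09 to -2.04). All 3 ratios share the 1 N+W+ library, and N22 shoots had 26, 3 and 9 reads under the same stresses, against 10 under N+W+. OsMADS27 and OsMADS25 were likewise highest or next to highest in that IR64 library among the IR64 shoots. MADS32, a grass gene of floral organ identity, had 13 reads in N22 shoots under N-W+, against 1 under N+W+ (4.04, interval 2.01 to 10.15), and 1 read under N-W-. That N-W+ library held the KNOX genes at 27.4 CPM, the highest sum of any shoot library, and their part in the MADS32 difference was not tested.

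**Figure D5:**
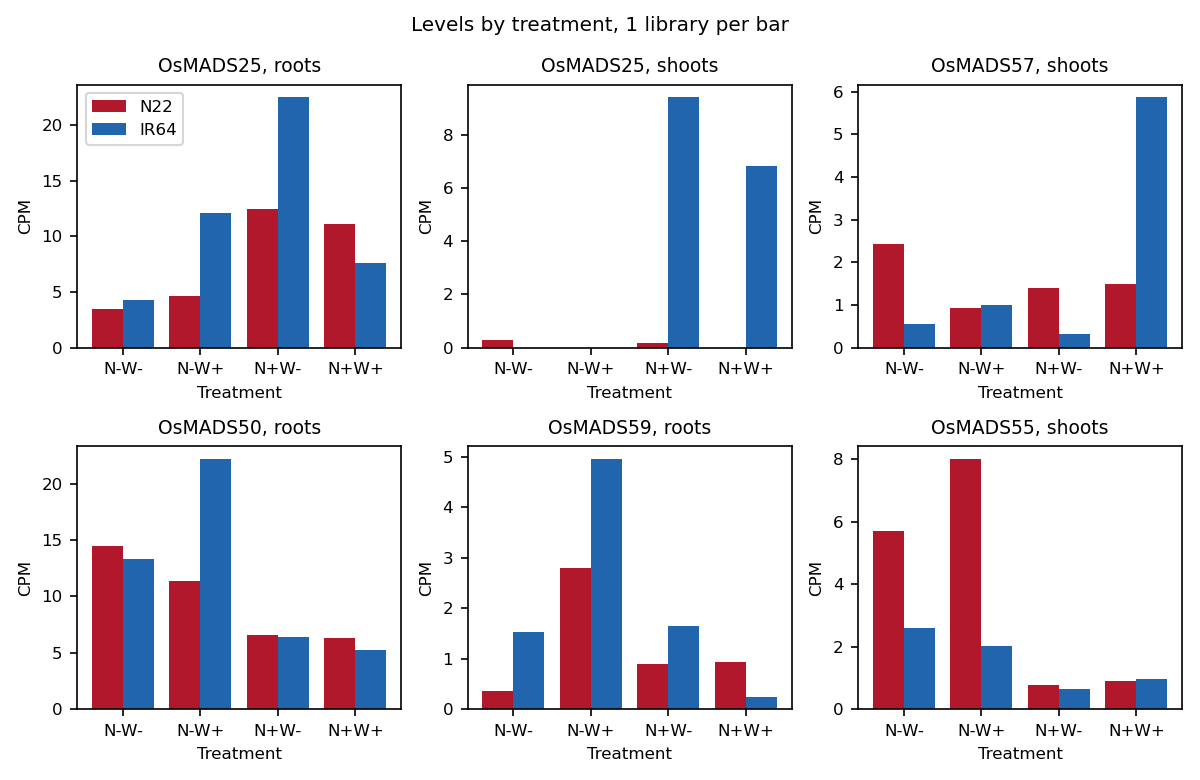
CPM by treatment for 5 members, 1 library per bar, N22 left of IR64. OsMADS25 is at 0 in IR64 shoots at low nitrogen, OsMADS50 in roots and OsMADS55 in shoots are highest in the low nitrogen libraries, and OsMADS59 peaks under N-W+ in roots of both genotypes.

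OsMADS47 passed in none of the comparisons, under any alternative run, and MADS51 passed only between root and shoot with library totals as the scaling. OsMADS47 was at 26.8 to 40.1 CPM in N22 roots and 22.6 to 36.7 CPM in IR64 roots. MADS51, a short-day promoter of flowering that acts upstream of Ehd1, was at 26.8 to 28.97 CPM in N22 roots and 26.3 to 40.0 CPM in IR64 roots. OsMADS60, without a clade assigned here, stayed within 19.2 to 21.9 CPM in N22 roots and 15.6 to 23.5 CPM in IR64 roots. In shoots it was wider, at 63.9 and 43.5 CPM in N22 at low nitrogen, against 91.7 and 66.7 CPM at optimal nitrogen, and at 22.9 and 27.8 CPM in IR64, against 41.4 and 74.3 CPM. It was lower at low nitrogen in all 4 pairs of shoot libraries but did not pass (-0.87 ± 0.31, edgeR adjusted p = 0.094).

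A list of 21 other genes, upstream of the floral MADS genes or beside them, was read with the members. It lacks EHD1 and HD1, whose symbols did not occur among the gene names. The florigen gene HD3A had no read in any library. In shoots 2 of the 13 list genes tested were called at low against optimal nitrogen, both lower: D14, the strigolactone receptor gene (-1.91 ± 0.35, edgeR adjusted p = 0.0135), and the phytochrome gene PHYB (-0.82 ± 0.23, edgeR adjusted p = 0.0475), while 18.2% of all genes tested passed. Between the genotypes in roots 1 of 16 was called higher in N22 (RCN2) and 1 lower (PHYA), against 14% of all genes. In roots none of the 16 was called at low against optimal nitrogen, against 7.36%. Between the organs 2 of 13 were called higher and 5 lower in roots, against 43.4%.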

How the data were processed

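Per the labels and the study's methods, RNA of biological replicates was pooled into 1 TruSeq library per group and sequenced as paired ends; the authors trimmed reads, mapped them to the Nipponbare genome (IRGSP-1.0) in CLC Genomics Workbench and deposited whole-number read counts per gene (exon, unique exon, gene, intron) and RPKM per library. The authors relaxed the mapping settings so that more reads of both genotypes, which are distant from the reference, could be placed; reads that differ most from it can still be missed. Total exon reads were used; exon reads per library (roots 8272195 to 13675454, shoots 2420338 to 11379518) limit members with few reads. Joint fits used edgeR 4.0.16 (quasi-likelihood, TMM within an organ, filterByExpr, Benjamini-Hochberg over all genes tested, 0.05), with genotype and treatment as terms; SE is the fold change divided by the root of F. CPM values use the same scaling. Pairwise ratios used a prior count of 0.5, with exact (Clopper-Pearson) binomial intervals of 95%, which cover counting error only. With 1 pooled library per group, p-values rest on agreement between genotypes or treatments. Alternatives were library totals, DESeq2 1.42.0 size factors and Wald test, no filter, 5 CPM in 2 libraries, unique exon reads, gene reads, another prior count or minimum, RPKM with a pseudocount of 1, and leaving out each library. The script was tested on simulated data. Members and lists were chosen with earlier results of these data known. Members named in the text were those called in a joint fit, the 6 highest per kilobase in an organ, those past the fold rule in the same direction in both genotypes with at least 20 reads, those whose interval lay wholly beyond 2, and those unread in 1 genotype but at 20 or more reads in every library of the other (3 only by the interval); others are given by clade or chosen after their values were seen. No sequences are printed.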

Additional observations from a re-analysis of the deposited data

How the results depend on the processing

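Of 116 recalculations of the called member differences under other scalings, filters, read types and DESeq2, all 116 kept direction and call. Leaving out 1 library, 167 of 200 did, and 33 lost the call with the direction kept. The 8 root against shoot calls, with 16 omissions each, lost none, so all 33 losses were in genotype and nitrogen calls. Nitrogen calls were lost in 5 of 8 omissions for OsMADS50, 7 of 8 for OsMADS56 and 5 of 8 for OsMADS55. Among genotype calls, OsMADS2 lost 8 of 8, OsMADS22 lost 4, OsMADS37 and OsMADS77 lost 2 each, and OsMADS56 lost none. Counts of called members moved as follows. Root against shoot gave 9 with library totals (adding MADS51) or 5 CPM in 2 libraries, 10 with gene reads and 11 with no filter (8 in the report). Nitrogen in roots gave 3 with DESeq2 or unique exon reads, adding OsMADS25 (2), and genotype in shoots gave 3 with the same alternatives, adding OsMADS37 (2). In roots under N-W+ the count went to 1 with DESeq2, gene reads or unique exon reads (0 in the report); in shoots under N-W+ to 1 with library totals or gene reads, and under N-W- to 1 with gene reads (0 in the report for both). A minimum of 5 CPM in 2 libraries left 2 genotype calls in roots (4) and 1 in shoots (2), since OsMADS2, OsMADS37 and OsMADS77 were no longer tested. Library totals gave 2 nitrogen calls in shoots (1), adding MADS18. The fold rule took 1, 19 and 1 members in roots (6) and 4, 25 and 0 in shoots (10) with 5 CPM, no minimum, and RPKM with a pseudocount of 1. With 1 library left out, counts were 8 to 10 for root against shoot, 1 to 3 for genotype in roots, 1 to 3 in shoots, 0 to 2 for nitrogen in roots, 0 to 3 in shoots, 0 to 0 in roots under each single stress, 0 to 1 in shoots under each low nitrogen stress, 0 to 0 under N+W-, 0 to 0 for genotype by nitrogen in roots, 0 to 1 in shoots, and 2 to 6 and 4 to 10 for the fold rule in roots and shoots. By replicate number, no paired analysis was possible because each group has 1 library; the fits match libraries by treatment, or by genotype and treatment, through their own terms. Depth limits members under about 20 reads, and the N22 shoot library under N-W+ most of all.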
